A study of Mus musculus with 62 samples.

Results

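Gene expression in the suprachiasmatic nucleus (SCN) was compared with that in the prefrontal cortex (PFC). The libraries were chosen by region and by nothing measured in them: all 19 SCN libraries and all 17 PFC libraries entered, 36 of the 62 libraries of the series. They came from C57BL/6J mice, 24 by the labels, each library from 1 animal. By the labels, 12 of the mice gave both an SCN and a PFC library. All mice were killed at ZT6, in the light phase, about 4 wks after circadian rhythm disruption (CRD), a series of reversals of the light cycle, or after a control paradigm in which the light cycle was left alone. The protocol in the labels names adolescent CRD, adult CRD and matching controls as sources of the tissue, and the study's methods name adolescent CRD and controls. The study's list of sample sizes for sequencing names only control and shifted mice of each sex. The labels do not say which library belongs to which group, nor the sex or age of a mouse. Each region may thus hold a mixture of these, and neither CRD nor sex was compared. Each region was taken as a punch of frozen brain, and a punch of a nucleus as small as the SCN can also hold neighboring hypothalamus.

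The SCN is the central circadian clock of mammals. It lies at the base of the hypothalamus, receives light from the retina, and consists mostly of small GABA neurons that release peptides such as vasopressin (Avp) and vasoactive intestinal peptide (Vip). Inside each cell, CLOCK and BMAL1 (encoded by Arntl) bind E-boxes and switch on Per and Cry genes, whose proteins later repress them. The PFC is part of the cerebral cortex, where most neurons are glutamate projection neurons marked by the vesicular transporter Slc17a7, with fewer GABA interneurons among them.

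Region and table cannot be told apart, since the SCN was deposited in a table of its own and the PFC shared a table with the nucleus accumbens. Depth moved with region as well. After mitochondrial genes and 3 ribosomal RNA rows were left out, SCN libraries held 6566651 to 23910639 counts, with a median of 9004133, and PFC libraries held 12392794 to 21311394, with a median of 19871512. The ribosomal RNA rows took 8.96% to 19.3% of all counts in the SCN and 2.32% to 5.02% in the PFC, and the ranges did not overlap. Thinning every library to 6566651 of these counts gave 7206 called genes against the 7191 given below, and keeping the mitochondrial and ribosomal RNA rows gave 7219. The part of ribosomal RNA in the results was not otherwise tested. SCN libraries also varied more among themselves: the median SD of log2 CPM was 0.275 over SCN libraries and 0.181 over PFC libraries. A few SCN libraries stood apart. SCN J1199 and SCN J1140 held summed levels of 16 striatal genes of 2536 and 1219 CPM, against an SCN median of 522 CPM, and results that rest on these libraries are also given without them. The library labelled SCN J1165 held 1403 counts of Xist and the library labelled PFC J1165 held 18, so the labels that assign both to the same mouse are in doubt. Without SCN J1165, 7206 genes were called.

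The labelled regions were checked against 4 defining genes. Six6, a transcription factor of the developing and adult SCN, was listed in the SCN table alone, at 7.39 to 89.4 CPM (median 49.2 CPM). Slc17a7 and Neurod6, a transcription factor of cortical projection neurons, were listed in the table of the PFC and nucleus accumbens alone. In the PFC libraries Slc17a7 spanned 1390 to 1640 CPM (median 1553 CPM) and Neurod6 154 to 200 CPM (median 171 CPM). Vip was in both tables. It spanned 10.9 to 289 CPM in the SCN (median 111 CPM) and 39.7 to 63.8 CPM in the PFC (median 47.9 CPM), where a class of cortical interneurons makes it. The ranges overlapped, and Vip was higher in the SCN by 1.23 ± 0.25 on the log2 scale (SE; adjusted p = 3.52e-05), in 11 of 12 mice with both regions.

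The tables shared 11109 genes after these rows were left out, and all were tested with edgeR's quasi-likelihood test on TMM-scaled counts. To be called, a gene needed a fold change of 1.2 or more and an adjusted p (Benjamini-Hochberg) under 0.05. Of the 11109 genes, 7191 (64.7%) were called, 3723 (33.5%) higher and 3468 (31.2%) lower in the SCN. The split depended on scaling: it was 5028 higher and 2502 lower when libraries were scaled by total counts alone, and 4608 and 2763 with upper-quartile factors. The median log2 fold change of all genes was 0.03 with TMM, 0.20 with total counts and 0.15 with upper-quartile factors, so a gene's value is read against a shift of up to that size. Because the tables were made apart, most weight is given to genes whose values did not overlap. SCN libraries lay wholly above PFC libraries in 989 genes (8.9%) and wholly below in 1324 genes (11.9%). With a difference of 4-fold or more as well, 146 genes (1.31%) were higher in the SCN and 224 (2.02%) lower. Ranges that do not overlap fix the direction in all 12 mice with both regions as well. In the lower range of mouse numbers, 7145 genes were called, with 158 higher and 316 lower at this size, and in the upper range 6875, with 167 and 202. Once SCN J1199 and SCN J1140 were left out, the large differences numbered 145 and 259. Adjusted p-values below are from this test. Counts of list members below are read against the 33.5% of all genes called higher and the 31.2% called lower. Fewer cells of a type and less RNA per cell cannot be told apart in punches.

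**Figure D1:**
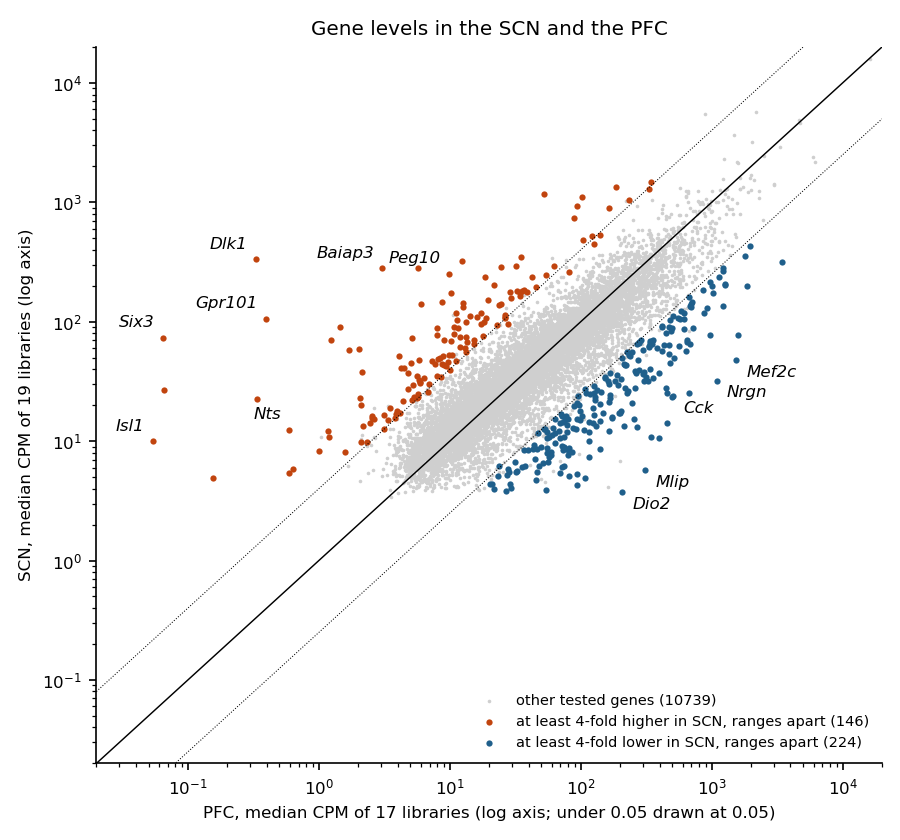
Each point is 1 of the 11109 tested genes, at its median CPM in the 17 PFC libraries (x axis, log) and the 19 SCN libraries (y axis, log); the solid line marks equal levels and the dotted lines a 4-fold difference. The 146 orange genes and 224 blue genes differed at least 4-fold with ranges that did not overlap. Dlk1, Six3 and Isl1 lie far above the line at PFC medians under 1 CPM, and Mef2c, Nrgn and Dio2 lie far below it.

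Genes of the SCN table alone, such as Avp, have no fold change and could not be ranked. Among the genes tested, Dlk1 differed most. It is an imprinted gene for a membrane protein of the Notch ligand family (chromosome 12, 109452823 to 109463336 in GRCm38). It spanned 130 to 920 CPM in the SCN (median 336 CPM) and 0 to 1.32 CPM in the PFC (median 0.33 CPM), where all 17 libraries together held 126 counts of it. Its log2 fold change was 9.71 ± 0.36 (adjusted p = 7.73e-25). Every SCN library thus stood far above every PFC library. Six3, a homeobox gene needed for the ventral forebrain and hypothalamus (chromosome 17, 85613608 to 85629302), spanned 35.2 to 183 CPM in the SCN (median 73.3 CPM). In the PFC it reached 1.02 CPM at most and was at 0 in 6 of 17 libraries, a log2 fold change of 8.26 ± 0.37 (adjusted p = 2.84e-22). Its antisense partner Six3os1 differed by 7.83 ± 0.29 (adjusted p = 7.14e-25). The genes overlap, and since the counting is not stated to use strand, their reads cannot be fully separated.

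Of the 146 genes, 21 differed at least 16-fold. Gpr101, an orphan receptor gene on chromosome X that ranked after Dlk1 and Six3, was at 56.2 to 172 CPM in the SCN and 0 to 1.26 CPM in the PFC, with a log2 fold change of 7.88 ± 0.22 (adjusted p = 8.19e-29). Isl1, a homeobox gene of ventral forebrain neurons, ranged from 5.09 to 39.2 CPM in the SCN and from 0 to 0.847 CPM in the PFC, a log2 fold change of 6.09 ± 0.39 (adjusted p = 4.25e-17). These ranges did not touch, and SCN J1199, at 29.9 CPM, was above the SCN median of 10 CPM. Baiap3, which acts in the traffic of dense-core vesicles, ranged from 198 to 420 CPM in the SCN and from 1.33 to 6.33 CPM in the PFC, a log2 fold change of 6.42 ± 0.16 (adjusted p = 1.4e-30). Scn9a, the gene of the sodium channel Nav1.7, which is known from pain neurons and from the hypothalamus, ranged from 60.4 to 248 CPM against 0.745 to 3.68 CPM, a log2 fold change of 6.02 ± 0.20 (adjusted p = 2.94e-26). Nts, the gene of the peptide neurotensin, was the least even of them in the SCN. It ran from 7.36 to 168 CPM there around a median of 12.5 CPM, and from 0.0828 to 1.75 CPM in the PFC, a log2 fold change of 5.87 ± 0.53 (adjusted p = 9.89e-13).

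The rest of the 15 largest were Clic6, a chloride channel relative at 11.1 to 55.4 CPM in the SCN and at most 0.99 CPM in the PFC (5.97 on the log2 scale), Nkx6-2, a homeobox gene that oligodendrocytes use (5.67), the unnamed coding gene AW551984 (5.56), Ecel1, a peptidase gene of neurons (5.29), Stk32a, a kinase gene (4.89), Slitrk6, of a family of synaptic adhesion proteins (4.85), and Peg10, an imprinted gene derived from a retrotransposon (4.76). Slitrk6 was the weakest of them in level, with 1.74 to 20.5 CPM in the SCN and 5 of 17 PFC libraries at 0. Nkx6-2, Baiap3 and Scn9a each overlap another gene on the opposite strand, so part of their counts could belong to the neighbor.

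**Figure D2:**
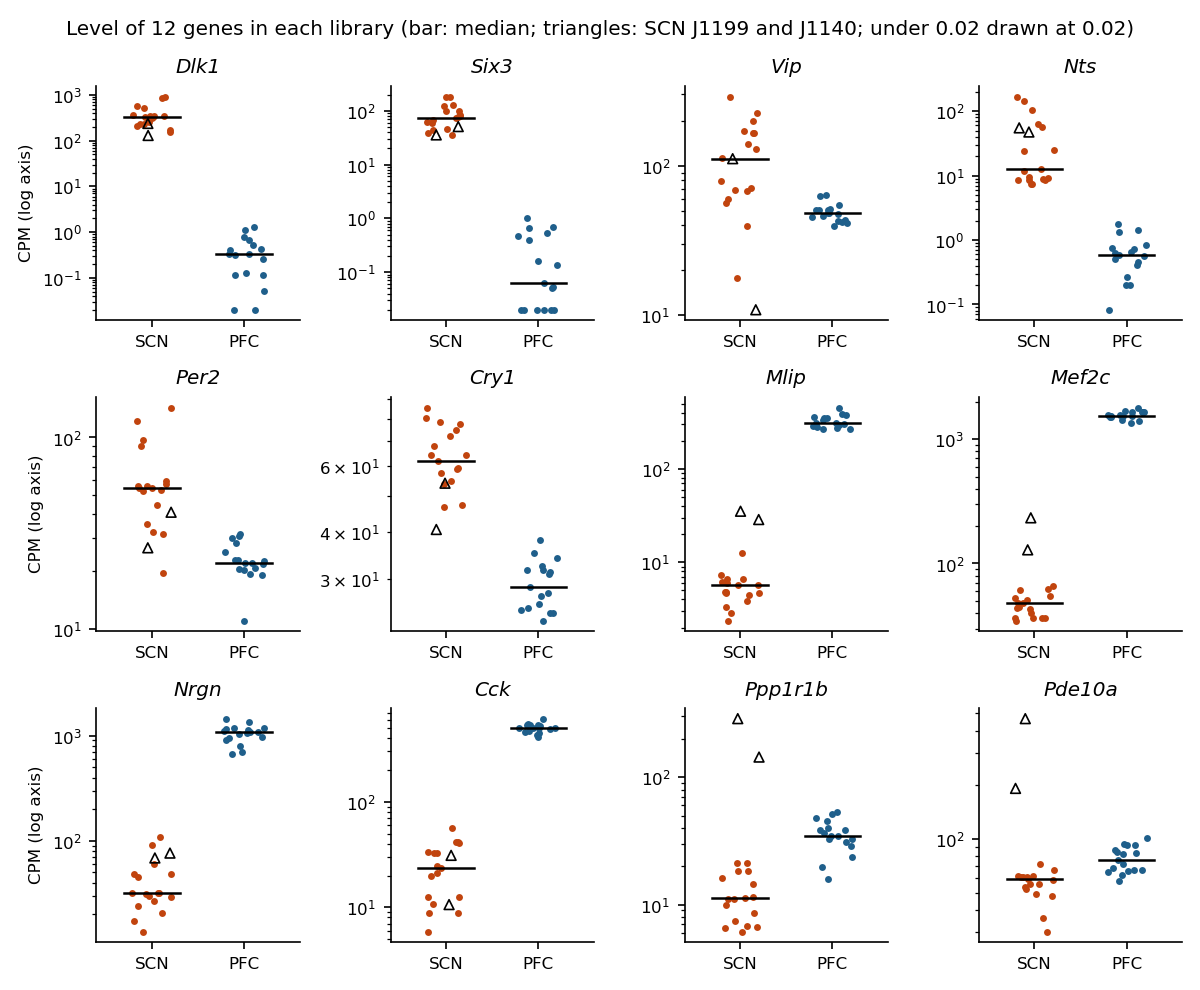
CPM (log axis) of 12 genes in each of the 19 SCN libraries (orange) and 17 PFC libraries (blue); bars are medians, and open triangles are SCN J1199 and SCN J1140. Dlk1, Six3 and Nts stand above the PFC in every SCN library and Mlip, Mef2c, Nrgn and Cck below it. Vip and Per2 overlap, and the triangles carry the highest SCN values of Ppp1r1b and Pde10a.

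Genes chosen as SCN transcription factors were higher in the SCN with an exception. Of 8 listed, 5 were tested, 4 were higher and 1 was lower, with a median log2 fold change of 1.28. Zfhx3, which shapes the period of the SCN clock, ranged from 71 to 530 CPM in the SCN and from 2.46 to 13.4 CPM in the PFC, a log2 fold change of 4.53 ± 0.24 (adjusted p = 1.4e-19). Rora and Rorb, nuclear receptors that act on Arntl, differed by 1.28 ± 0.15 and 1.04 ± 0.15, with overlapping ranges and the same direction in 11 of 12 mice. Nr2f1 went the other way, at 18 to 43.5 CPM against 47.9 to 76.6 CPM, a log2 fold change of -1.06 ± 0.09 (adjusted p = 2.56e-14). It also patterns the cortex. The remaining 3 members, with Six6 and Lhx1 among them, were in the SCN table alone.

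Peptides of the SCN split between the tables. Of 10 listed, 5 were in both tables, with 3 higher and 2 lower in the SCN, and 5 were in the SCN table alone. The 3 higher members include Calb2, which encodes a calcium-binding protein and not a peptide. Avp was at 253 CPM there (median) and Prok2, an output signal of the SCN, at 37.7 CPM. Calb2, the gene of calretinin, ranged from 123 to 320 CPM in the SCN and from 13.8 to 24.5 CPM in the PFC (log2 fold change 3.61 ± 0.11, adjusted p = 1.06e-27). Penk, the gene of enkephalin, differed by 1.70 ± 0.20 (adjusted p = 4.01e-10). Its highest SCN value, 593 CPM, was 217 CPM once SCN J1199 and SCN J1140 were left out. Cck, a peptide gene that both regions use, was at 5.86 to 55.9 CPM in the SCN and 412 to 614 CPM in the PFC, a log2 fold change of -4.34 ± 0.22 (adjusted p = 2.53e-20). Sst, the gene of somatostatin, overlapped between regions at -0.45 ± 0.16 (adjusted p = 0.0118), and was lower in 8 of 12 mice. It was not called within the lower range of mouse numbers (-0.28) or with total-count scaling (-0.28).

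Receptors and signalling genes of the SCN were higher in all 4 tested members of 12 listed, and 6 more were in the SCN table alone. Syt10, a vesicle protein gene used as a marker of SCN neurons, ranged from 19.5 to 220 CPM in the SCN and from 2.91 to 13.1 CPM in the PFC, a log2 fold change of 4.24 ± 0.23 (adjusted p = 2.04e-19). Gpr176, an orphan receptor of the SCN, differed by 1.83 ± 0.09 with ranges of 17 to 35 CPM and 6.09 to 9.15 CPM. Adcyap1r1, the receptor of the retinal peptide PACAP, differed by 1.31 ± 0.06. These 3 genes did not overlap between regions. Rasl11b differed by 0.47 ± 0.19 (adjusted p = 0.0226), and its adjusted p was 0.0604 with the replicate block in the mice with both regions and 0.304 in the lower range of mouse numbers.

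Across the tables, 914 genes were listed in the SCN alone and 436 in the PFC and nucleus accumbens alone, of which 435 remained after a left-out row. These have no fold change, because a gene absent from a table may have been under its filter. All 914 had a median above 1 CPM over the SCN libraries and 194 were above 10 CPM. Among those of the lists, Agt, the precursor of angiotensin made by hypothalamic astrocytes, had a median of 397 CPM, Trh, the gene of thyrotropin-releasing hormone, 187 CPM, Rgs16, a regulator of G-protein signalling in the SCN, 105 CPM, and Prokr2, the receptor of Prok2, 63.2 CPM. Of the 435 genes, 424 had a PFC median above 1 CPM and 147 above 10 CPM. Tbr1 (154 CPM), a transcription factor of cortical projection neurons, and Egr3 (115 CPM), an immediate early gene, were among them. The level of these genes in the other region was not analysed here.

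**Figure D3:**
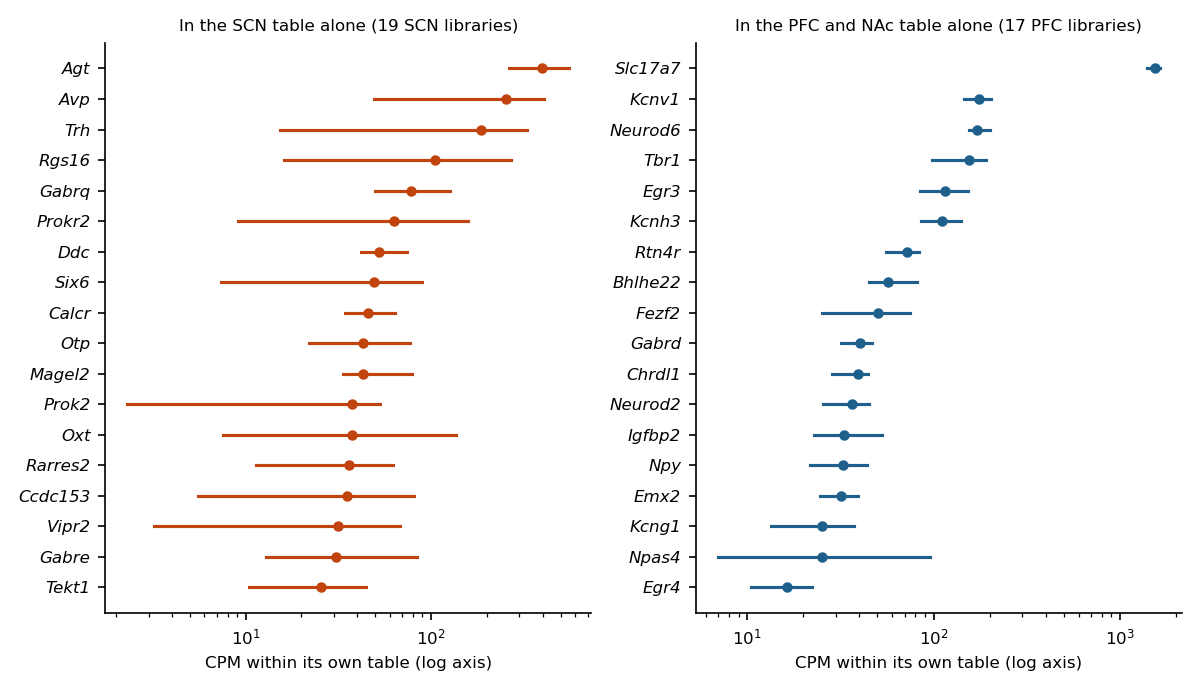
For list members present in 1 table only, up to 18 a panel with the highest medians, points give the median CPM within that table (log axis) and lines run from the lowest to the highest library. The left panel shows the 19 SCN libraries, where Prok2 and Vipr2 vary widely, and the right panel the 17 PFC libraries, where Slc17a7 has a median of 1553 CPM and a narrow range.

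Transcription factors of the hypothalamus and diencephalon were all higher in the SCN among those tested. This holds for 7 of 7 tested members of 19 listed, with a median log2 fold change of 2.42. A further 5 were in the SCN table alone and 1 in the table of the PFC and nucleus accumbens alone. Dlx1, Dlx5 and Dlx6, homeobox genes of forebrain GABA neurons, differed by 2.42 ± 0.17, 2.57 ± 0.13 and 3.07 ± 0.17, and Isl1 is also a member. Dlx6 ranged from 7.32 to 29.8 CPM in the SCN and from 0.828 to 3.95 CPM in the PFC. Tcf7l2, a Wnt effector of the thalamus, was higher by 1.47. In 6 of the 7 the ranges lay apart.

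Genes that set the transmitter of a neuron followed the same direction in 5 of 5 tested members, with no overlap. Another 4 members were in the SCN table alone and 3 in the table of the PFC and nucleus accumbens alone. Slc17a6, the vesicular glutamate transporter of the hypothalamus and thalamus, ranged from 55.5 to 256 CPM in the SCN and from 8.33 to 19.5 CPM in the PFC, a log2 fold change of 3.47 ± 0.17 (adjusted p = 9.23e-21). Slc32a1, which loads GABA into vesicles, ranged from 96.1 to 307 CPM against 28.4 to 47.1 CPM (2.24 ± 0.10, adjusted p = 2.84e-22). The GABA-synthesizing enzymes Gad2 and Gad1 differed by 2.02 ± 0.13 and 1.15 ± 0.10. Thus both GABA genes and the subcortical glutamate transporter were higher in the SCN punch, while the cortical transporter Slc17a7 was listed for the PFC alone. Of other hypothalamic peptides, 3 of 16 listed were tested and all were higher, Nts, Cartpt (3.88 ± 0.39, adjusted p = 1.55e-11) and Tac1. A further 4 were in the SCN table alone and 2 in the table of the PFC and nucleus accumbens alone. Cartpt makes a peptide that limits feeding, and it varied from 3.45 to 171 CPM over SCN libraries, with its lowest library just inside the PFC range (1.62 to 3.46 CPM). Tac1, the gene of substance P, was at 1.25 ± 0.30 (adjusted p = 0.000267), but was higher in 7 of 12 mice only, and with the replicate block its adjusted p was 0.215 at a log2 fold change of 0.50.

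Core clock genes were measured at a single time of day, so a difference may be one of phase or of level, which cannot be told apart. Of 24 listed, 23 were tested, with a median of 0.17. In the SCN 10 were higher (43.5%) and 7 lower (30.4%), against 33.5% and 31.2% of all genes tested, and 6 were not called. The repressor Per2 spanned 19.7 to 143 CPM in the SCN (median 54.2 CPM) and 11 to 31.5 CPM in the PFC (median 22.1 CPM). It was higher by 1.37 ± 0.19 (adjusted p = 3.11e-08) in 11 of 12 mice, although the ranges overlapped. Cry1, its partner, ranged from 40.6 to 85.6 CPM in the SCN and from 23.3 to 38.2 CPM in the PFC, so that all SCN libraries were above all PFC libraries (1.11 ± 0.09, adjusted p = 7.72e-15). Per1 overlapped widely at 38.4 to 146 CPM and 45.1 to 83.6 CPM, a log2 fold change of 0.42 ± 0.13 (adjusted p = 0.00408). It was not called in the lower range of mouse numbers (0.13, adjusted p = 0.581) and was at 0.61 in the upper range. Per3, with 0.02 ± 0.10 (adjusted p = 0.854), was higher in 6 of 12 mice and lower in the other 6.

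The activators were lower in the SCN. Arntl ranged from 29.8 to 45.1 CPM in the SCN and from 57.4 to 82.1 CPM in the PFC, with no overlap, a log2 fold change of -0.76 ± 0.06 (adjusted p = 1.92e-15). Npas2, which can take the place of CLOCK in the forebrain, had the largest negative value, -2.56 ± 0.13 (adjusted p = 7.82e-21), at 8.35 to 42 CPM against 84 to 119 CPM. Clock itself was at -0.27 ± 0.05 (adjusted p = 2.48e-05), just past the fold threshold. It was not called with total-count (-0.10) or upper-quartile scaling (-0.153), in the upper range of mouse numbers (-0.23) or with thinned counts (-0.245). The call was also lost with the nucleus accumbens libraries added (-0.256) and in the mice with both regions without the block (-0.255). Cry2, a repressor, was also lower (-0.51 ± 0.06, adjusted p = 4.04e-10), as was the kinase gene Csnk1e (-0.31 ± 0.07), whose call was lost with the replicate block (-0.25).

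Output and accessory genes went both ways. Dbp, a transcription factor driven directly by the clock, ranged from 107 to 218 CPM in the SCN and from 51.9 to 90.3 CPM in the PFC (1.26 ± 0.09, adjusted p = 1.68e-15). Its relative Hlf was lower (-0.42 ± 0.09, adjusted p = 0.000114; -0.25 and under the fold threshold with total-count scaling), and Tef, with -0.20 ± 0.04, stayed under the fold threshold. Bhlhe41 and Bhlhe40 are paired repressors of E-box genes. They went in opposite directions, 1.5 ± 0.08 and -1.24 ± 0.07, each with no overlap of ranges. Fbxl21, an F-box gene that acts on CRY proteins, was the highest of the list at 2.51 ± 0.14 (adjusted p = 4.74e-19). Further members were Csnk1d (0.50), Nr1d2 (0.45), Nr1d1 (0.17), Ciart (0.24) and Nfil3 (0.07), of which the first 2 were called. Nr1d1 and Ciart were called with total-count scaling, at 0.34 and 0.41, and Ciart also with the replicate block (0.26). Nfil3 was called higher in the upper range of mouse numbers (0.352, adjusted p = 0.00832). In the lower range Nfil3 was at -0.347 and not called (adjusted p = 0.15).

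**Figure D4:**
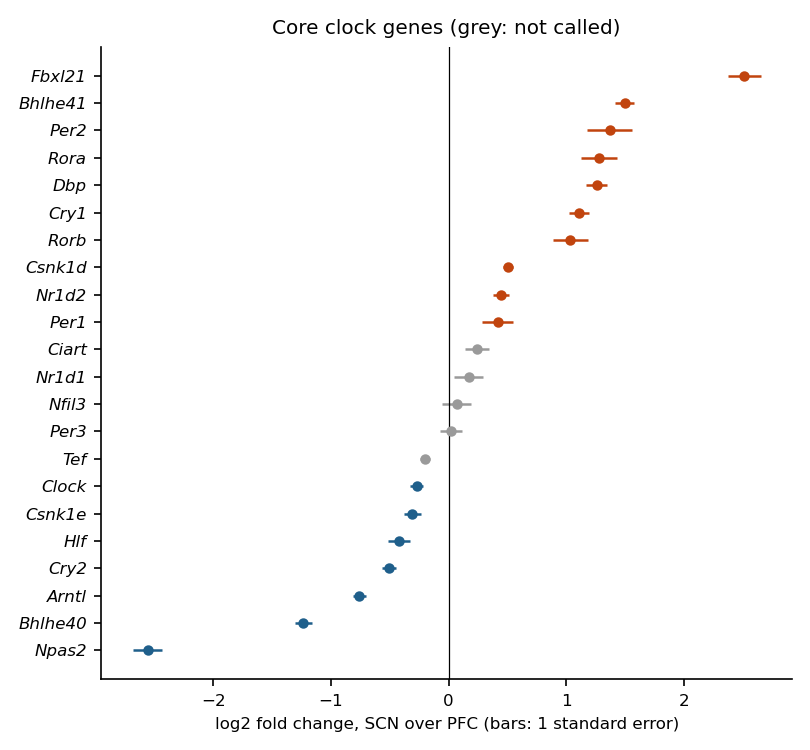
Points are the log2 fold change of each of 22 of the 23 core clock genes tested, SCN over PFC, and bars are 1 standard error. Orange genes were called higher (10), blue genes lower (7) and grey genes not called (5 shown); Fbxl21 and Npas2 are the extremes at 2.51 and -2.56.

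Since several clock genes are E-box genes, the promoters of Per1 and Cry1, both higher in the SCN, are shown. That of Mlip, the tested gene furthest lower in the SCN, holds the same motif and is shown as well. The promoter of Scg2, described next, is added because it holds a cyclic AMP response element. The sequences are the 250 bases before a start listed by RefSeq (GRCm38.p6), 5′ to 3′ on the gene's strand. Capitals mark the E-box CACGTG in the first 3 and the element TGACGTCA in the last. Per1 has 2 listed starts and the first is shown, as the window of the second holds no E-box. Mlip also has 2, each with the E-box in its window, and the first is shown. None of the windows overlaps an exon of its gene in GENCODE M21.
Per1, chr11:69098699-69098948, plus strand: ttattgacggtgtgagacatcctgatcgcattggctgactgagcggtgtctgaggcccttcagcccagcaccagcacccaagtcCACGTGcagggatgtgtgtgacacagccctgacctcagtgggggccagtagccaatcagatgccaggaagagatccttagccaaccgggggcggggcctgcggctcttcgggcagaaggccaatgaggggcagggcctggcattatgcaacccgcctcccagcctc
Cry1, chr10:85185055-85185304, minus strand: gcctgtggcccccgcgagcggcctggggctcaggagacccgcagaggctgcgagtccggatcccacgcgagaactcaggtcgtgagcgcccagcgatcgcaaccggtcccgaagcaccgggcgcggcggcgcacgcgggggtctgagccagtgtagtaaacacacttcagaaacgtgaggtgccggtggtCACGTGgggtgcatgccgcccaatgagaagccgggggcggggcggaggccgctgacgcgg
Mlip, chr9:77347871-77348120, minus strand: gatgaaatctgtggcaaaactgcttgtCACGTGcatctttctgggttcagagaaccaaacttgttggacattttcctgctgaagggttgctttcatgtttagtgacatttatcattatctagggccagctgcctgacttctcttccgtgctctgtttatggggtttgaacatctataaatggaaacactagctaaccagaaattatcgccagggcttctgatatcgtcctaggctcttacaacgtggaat
Scg2, chr1:79440027-79440276, minus strand: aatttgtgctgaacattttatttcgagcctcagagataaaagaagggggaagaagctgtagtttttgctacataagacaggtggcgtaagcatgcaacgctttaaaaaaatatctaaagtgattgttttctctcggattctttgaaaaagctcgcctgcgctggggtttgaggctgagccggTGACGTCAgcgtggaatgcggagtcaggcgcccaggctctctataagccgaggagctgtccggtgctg

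The E-box begins 166 bases before the start shown for Per1, 60 bases before that of Cry1 and 223 bases before that shown for Mlip. The element in Scg2 begins 68 bases before its start. Both motifs read the same on either strand. A promoter was found by symbol for 8534 of the 11109 tested genes, and 10.4% of them held the E-box in at least 1 of their windows. The share was 6.96% of 115 genes at least 4-fold higher in the SCN with ranges apart, and 13.2% of 152 such genes lower. For the cyclic AMP response element the shares were 3.37% of all, 3.48% of the higher and 1.32% of the lower genes. Of 19 tested clock genes with a promoter, 5 held the E-box, Per1, Cry1, Tef, Bhlhe41 and Ciart. These 5 include genes that were higher in the SCN and genes that were not called.

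Genes of dense-core vesicles, which store peptides, were mixed. Of 19, 8 were higher (42.1%) and 7 lower (36.8%), against 33.5% and 31.2% of all genes tested. The median of -0.05 turned to 0.12 with total-count scaling and 0.07 with upper-quartile factors, which left 2 and 3 members lower. Beside Baiap3, Scg2, the gene of secretogranin II, ranged from 684 to 2193 CPM in the SCN and from 119 to 230 CPM in the PFC, a log2 fold change of 3.01 ± 0.12 (adjusted p = 2.51e-23). Resp18, a protein of endocrine secretory granules, ranged from 123 to 215 CPM against 31.2 to 43.5 CPM (2.29 ± 0.06, adjusted p = 6.53e-30). Both were apart in all libraries. The granule protein gene Chga was higher by 1.34, while Pcsk2, which cleaves peptide precursors, was lower, at -1.29, and its relative Pcsk1 was at -0.31, which was not called with the replicate block (adjusted p = 0.0719).

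Imprinted genes, which are expressed from the copy of a single parent, were higher in 22 of 31 tested members and lower in 3. Their median was 0.63, and 12 lay wholly above the PFC, against 8.9% of all genes tested. Beside Dlk1, they include Peg10 at 153 to 727 CPM in the SCN and 5.76 to 14.7 CPM in the PFC (4.76 ± 0.19), and Nnat, the gene of neuronatin, a small membrane protein of the hypothalamus, at 667 to 2126 CPM against 28.5 to 86.4 CPM (4.48 ± 0.18, adjusted p = 5.46e-24). Peg3 and Usp29, neighboring genes of the same imprinted cluster, differed by 2.15 ± 0.16 and 2.32 ± 0.12. Peg3 ranged from 752 to 3258 CPM in the SCN, against 167 to 476 CPM. The members lower in the SCN were Cdkn1c, a cell cycle inhibitor (-1.11 ± 0.14, adjusted p = 4.23e-09), Snrpn, a splicing protein gene (-0.36 ± 0.04), and Mest (-0.28), with an adjusted p of 0.0578 with the replicate block. With total-count scaling 1 of these 3 was still called lower, and Snrpn was not called (-0.19).

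In the other direction, Mlip (chromosome 9, 77102081 to 77352969) showed the largest difference among the genes tested. The gene encodes a protein that binds lamin A. It spanned 2.36 to 35.2 CPM in the SCN (median 5.70 CPM) and 268 to 453 CPM in the PFC (median 309 CPM), a log2 fold change of -5.29 ± 0.28 (adjusted p = 1.36e-19). The 2 highest SCN values, 35.2 and 28.7 CPM, were those of SCN J1199 and SCN J1140, and without them the log2 fold change was -5.91. Dio2, the enzyme that activates thyroid hormone, behaved alike, with 40.5 and 36.7 CPM in those libraries, 10.4 CPM or less in all other SCN libraries and 173 to 302 CPM in the PFC. Its log2 fold change of -4.74 ± 0.35 was -5.64 without them and -3.96 with DESeq2. Leaving these libraries out thus made the difference larger in both genes.

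Mef2c, a transcription factor of cortical neurons and synapses, ranged from 34.6 to 233 CPM in the SCN and from 1359 to 1791 CPM in the PFC (-4.68 ± 0.21, adjusted p = 2.98e-22). Adcy1, an adenylyl cyclase stimulated by calmodulin, was at 14.6 to 67.8 CPM against 503 to 880 CPM (-4.47 ± 0.18, adjusted p = 6.09e-24). No SCN library came near the PFC range in either gene. Vxn, a neuronal differentiation gene, ranged from 18.2 to 43 CPM against 367 to 614 CPM (-4.27 ± 0.11). Others of the 15 largest were Nrgn, Sv2b, Cck and Ddn, given with their groups, and Inka2 (-3.99), Necab1 (-3.84), a calcium-binding protein gene of neurons, Nwd2 (-3.81) and the processed pseudogenes Gm7308 (-3.96) and Gm14586 (-3.84), whose counts are uncertain because pseudogenes share reads with their parent genes. In 9 genes the difference was at least 16-fold.

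Genes of cortical projection neurons were lower in 9 of 11 tested members, with a median of -1.84, and 8 more were in the table of the PFC and nucleus accumbens alone. Their summed level was 771 to 1845 CPM in the SCN and 6686 to 9099 CPM in the PFC, with SCN J1199 the highest SCN library. Nrn1, the gene of neuritin, ranged from 8.75 to 73.4 CPM against 335 to 539 CPM (-3.47 ± 0.19, adjusted p = 1.36e-19), and Lmo4, a transcriptional cofactor, from 21.9 to 81.9 CPM against 307 to 387 CPM (-3.30 ± 0.11, adjusted p = 6.84e-26). The exceptions were Rasgrf2 and Cux1, used as markers of upper cortical layers, which were higher in the SCN by 0.70 ± 0.09 and 0.68 ± 0.16. Cux1 was not called in the lower range of mouse numbers (0.30, adjusted p = 0.131). Patterning factors of the telencephalon were lower in 4 of 5, with Lhx2 at 2.14 to 36.1 CPM against 35.6 to 65.8 CPM (-2.86 ± 0.25, adjusted p = 4.7e-13). Nr2f2, also known from the hypothalamus, was higher by 2.59 ± 0.13 (adjusted p = 7.47e-21), at 52.7 to 192 CPM against 12.6 to 22.7 CPM.

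Tested genes of cortical interneurons showed no common direction. Of 10, 3 were higher (30%) and 5 lower (50%), against 33.5% and 31.2% of all genes tested. The median of -0.10 was 0.07 with total-count scaling and 0.02 with upper-quartile factors. A further 4 listed members were in the table of the PFC and nucleus accumbens alone. Calb2 was higher, as given above, and Lamp5, a marker of superficial interneurons, was lower, at 0.885 to 35 CPM against 68.3 to 149 CPM (-3.66 ± 0.30, adjusted p = 5.53e-14). Reln, a matrix signal of such cells, was at -0.31 (adjusted p = 0.145 with the replicate block). The summed level of the list overlapped, at 758 to 1224 CPM in the SCN and 729 to 1028 CPM in the PFC.

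Scaffold and kinase genes of the glutamate postsynapse were lower in the SCN in 24 of 24 tested members, under each scaling, and 11 of them were at least 4-fold lower with ranges apart. The median was -1.88, and 1 listed member was in the SCN table alone. Nrgn, the gene of neurogranin, which binds calmodulin in spines, ranged from 13.6 to 108 CPM in the SCN and from 674 to 1452 CPM in the PFC (-4.57 ± 0.22, adjusted p = 3.39e-21). Camk2a, the alpha subunit of the calcium kinase of spines, ranged from 219 to 801 CPM against 2400 to 4400 CPM (-3.22 ± 0.14, adjusted p = 1.52e-22). Homer1, which links glutamate receptors to internal calcium stores, ranged from 33 to 149 CPM against 384 to 714 CPM (-3.18 ± 0.15). Ddn, the gene of dendrin, was highest in the SCN in J1199 (191 CPM) and at most 52 CPM outside J1199 and J1140, against 308 to 577 CPM in the PFC (-3.85 ± 0.37, adjusted p = 3.83e-12, and -4.62 without those libraries). The smallest differences of the list were in Camk2g (-0.52) and Camk2d (-0.55), subunits that many cell types share.

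Among ionotropic glutamate receptors, 6 of 17 were higher (35.3%) and 6 lower (35.3%), with a median of -0.19. These shares were near those of all genes tested (33.5% and 31.2%). The NMDA receptor subunit Grin2a was lower, at 14.5 to 110 CPM against 328 to 543 CPM (-3.67 ± 0.20, adjusted p = 4.26e-19), as were Gria3 (-2.76 ± 0.13) and Grin2b (-2.12 ± 0.16). Grin2d, a subunit of slow NMDA receptors, was higher, at 13.3 to 52.9 CPM against 2.85 to 8.77 CPM (1.92 ± 0.16, adjusted p = 6.21e-14), and so was the kainate receptor Grik1 (1.26 ± 0.08). All 5 had ranges apart. Among GABA-A receptor subunits, 2 of 11 were higher and 8 lower. Gabrg1, a gamma subunit of subcortical neurons and astrocytes, ranged from 134 to 258 CPM in the SCN and from 50.1 to 70.5 CPM in the PFC (1.8 ± 0.07, adjusted p = 6.1e-24), while Gabra4 (-2.50 ± 0.14, adjusted p = 1.47e-19) and Gabrb2 (-1.29 ± 0.08) were lower. Gabrg3 was at 0.49 ± 0.13 with overlap, and was not called in the lower range of mouse numbers (0.32). The same kind of receptor thus differed by subunit.

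Genes of synaptic vesicle release were lower in 24 of 34 and higher in 7, with a median of -0.77. Sv2b, a vesicle glycoprotein of glutamate terminals, ranged from 47.1 to 122 CPM in the SCN and from 1385 to 1811 CPM in the PFC (-4.35 ± 0.11, adjusted p = 5.31e-30). Its relative Sv2c was higher, at 16.8 to 217 CPM against 12.7 to 25.5 CPM (1.38 ± 0.25), with a highest SCN value of 104 CPM outside SCN J1199 and SCN J1140. Stx1a, a syntaxin of the fusion complex, ranged from 29.7 to 52.9 CPM against 250 to 337 CPM (-2.97 ± 0.06, adjusted p = 3.01e-33). Rims3, an active zone protein gene, was higher by 1.37 ± 0.07. Syt2, a fast calcium sensor, was at 1.35, but was not called in the lower range of mouse numbers (0.60, adjusted p = 0.136). Voltage-gated potassium channels were lower in 19 of 24 and higher in 4, with a median of -1.14. Kcnh7 ranged from 20.2 to 39.9 CPM in the SCN and from 206 to 327 CPM in the PFC (-3.16 ± 0.09, adjusted p = 6.02e-29), and Kcnq5, of the M-current family, was at -2.82 ± 0.18. Kcna5 (2.51 ± 0.23, adjusted p = 2.04e-12) and Kcnh2 (0.92 ± 0.09) were higher, both with ranges apart.

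**Figure D5:**
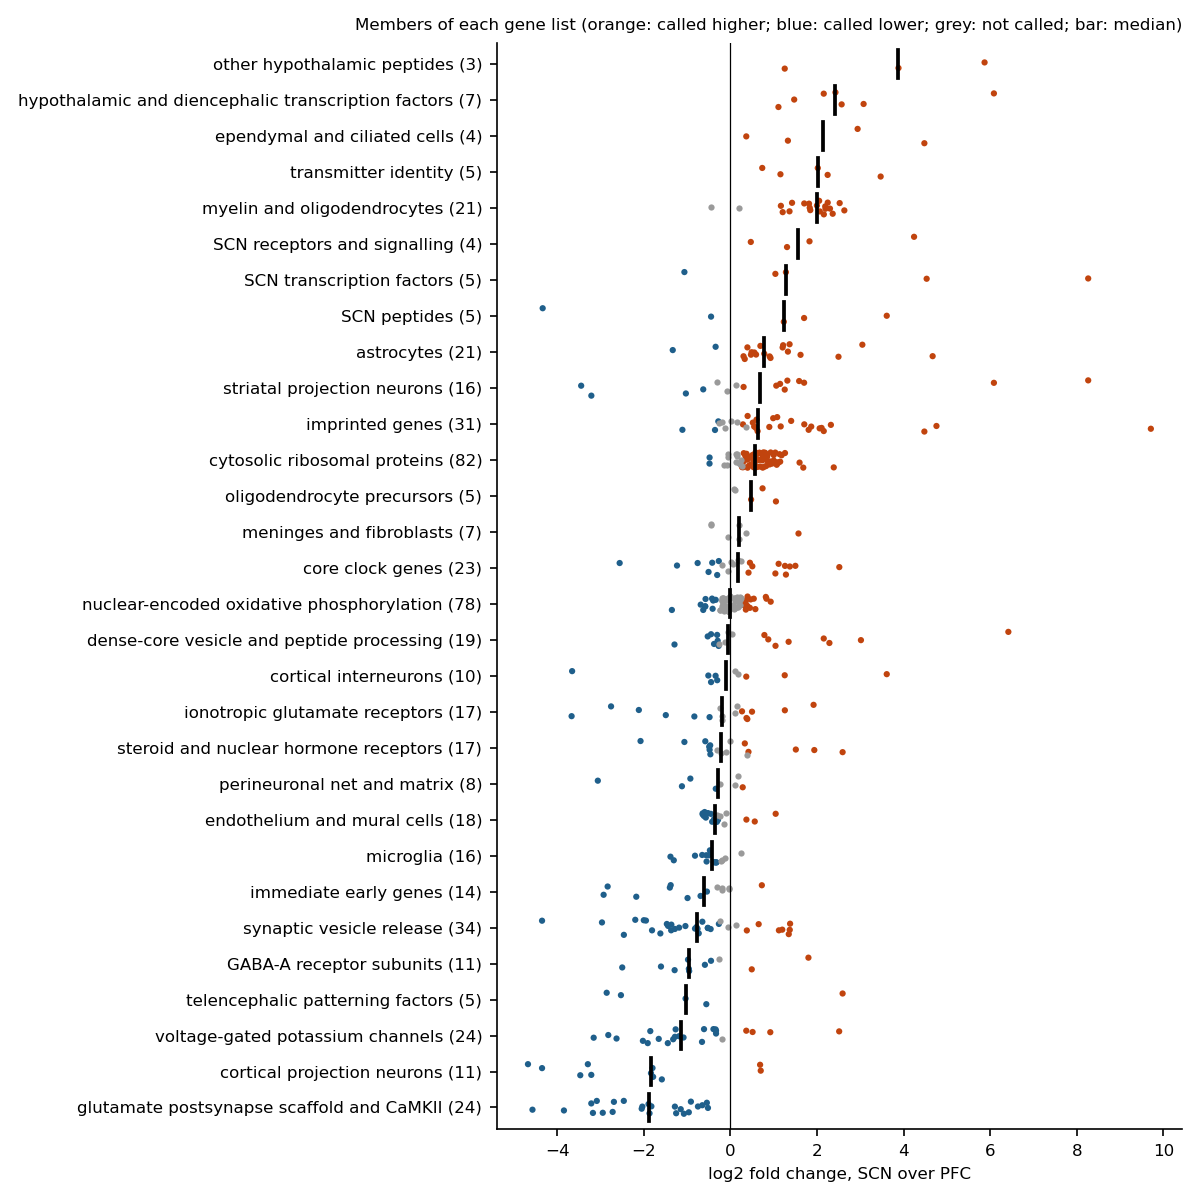
Each point is a tested member of a gene list, at its log2 fold change, SCN over PFC (x axis); the number tested stands after the name, and black bars are medians. Orange members were called higher, blue members lower and grey members not called. All 24 postsynaptic members lie below 0, and 22 of 31 imprinted genes and 68 of 82 ribosomal protein genes are orange; several genes are in more than 1 list.

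Immediate early genes, which neuronal activity induces, were lower in 8 of 14 (57.1%) and higher in 1 (7.14%), with a median of -0.62. The shares of all genes tested were 31.2% and 33.5%. A further 6 members were in the table of the PFC and nucleus accumbens alone. In the SCN table alone were 2, Ier2 (median 6.19 CPM) and Klf4 (4.83 CPM). Egr1 ranged from 8.55 to 53.4 CPM in the SCN and from 72.2 to 222 CPM in the PFC (-2.93 ± 0.21, adjusted p = 4.7e-16), and Arc, which acts at glutamate synapses, from 3.91 to 22.7 CPM against 39.1 to 143 CPM (-2.84 ± 0.18, adjusted p = 4.47e-17). Fos was not called (-0.20), and its sign turned with the replicate block (0.19). Jund was higher by 0.72 ± 0.06. Of nuclear hormone receptors, 5 of 17 were higher (29.4%) and 7 lower (41.2%), against 33.5% and 31.2% of all genes tested. Esr1, the estrogen receptor alpha, ranged from 13.9 to 92.2 CPM in the SCN and from 4.2 to 10.7 CPM in the PFC (1.94 ± 0.21, adjusted p = 5.9e-11), and Rxra was higher by 1.51 ± 0.09. The thyroid hormone receptor Thrb ranged from 20.6 to 63.4 CPM against 117 to 169 CPM (-2.08 ± 0.10), which is the direction of Dio2. Genes of perineuronal nets, the matrix around some neurons, were lower in 4 of 8 (50%) and higher in 1 (12.5%). Of all genes tested, 31.2% were lower and 33.5% higher. Hapln1, which links matrix chains, was at 2.57 to 12.9 CPM against 40.7 to 63 CPM (-3.06 ± 0.15, adjusted p = 1.12e-20), Ncan at -1.12 ± 0.11, Tnr at -0.93 ± 0.16 and Bcan at 0.28 ± 0.06. Bcan was not called in the lower range of mouse numbers (0.18, adjusted p = 0.108). Vcan was at -0.34 ± 0.12 (adjusted p = 0.0127), and its adjusted p was 0.146 with the replicate block.

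Genes of glia differed as well. Of myelin and oligodendrocyte genes, 19 of 21 were higher in the SCN and none lower, with a median of 2.0. The lowest member was at -0.44 and was not called. Without SCN J1199 and SCN J1140, 1 member was called lower, as was 1 with the replicate block. Of the 21, 4 lay wholly above the PFC, against 8.9% of all genes tested. The summed level of the list spread from 1342 to 8417 CPM over SCN libraries and from 907 to 1943 CPM over PFC libraries. Mobp, a myelin protein gene, ranged from 78.6 to 917 CPM against 21.8 to 97.9 CPM (2.63 ± 0.23, adjusted p = 3.89e-13), and Fa2h, an enzyme of myelin lipids, from 4.37 to 42.1 CPM against 1.08 to 5.72 CPM (2.52 ± 0.25, adjusted p = 6.89e-12). The SCN lies beside the optic chiasm, a tract of myelinated axons, and how much tract a punch held was not tested. Precursor cells of oligodendrocytes gave 3 of 5 genes higher (60%) and none lower, against 33.5% and 31.2% of all genes tested. Lhfpl3 differed by 1.05 ± 0.07 (adjusted p = 5e-17), Gpr17 by 0.74 ± 0.13 and Neu4 by 0.48 ± 0.13. Gpr17 (0.39, adjusted p = 0.0674) and Neu4 (0.32, adjusted p = 0.149) were not called in the lower range of mouse numbers. The defining receptor Pdgfra was at 0.10 ± 0.08 (adjusted p = 0.222), although it was called with total-count scaling (0.27, adjusted p = 0.00117), and Cspg4 at 0.08 ± 0.14 (adjusted p = 0.621).

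Astrocyte genes were higher in 19 of 21 and lower in 2, with a median of 0.78. Itih3 ranged from 245 to 419 CPM in the SCN and from 9.42 to 16.7 CPM in the PFC (4.67 ± 0.08, adjusted p = 2.27e-35), and Slc6a11, the GABA transporter GAT-3, with medians of 734 and 88.2 CPM and no overlap (3.05 ± 0.07, adjusted p = 1.44e-30). Gfap, the filament protein, varied from 123 to 1370 CPM over SCN libraries and overlapped the PFC (2.49 ± 0.27). The lower members handle glutamate. Slc1a2, the main glutamate transporter, ranged from 1336 to 3064 CPM against 3917 to 7092 CPM (-1.33 ± 0.10, adjusted p = 1.22e-15), and Glul, glutamine synthetase, was at -0.34 ± 0.06 and not called with total-count scaling (-0.17). The summed level of the list overlapped, at 7650 to 13027 CPM and 8301 to 13064 CPM.

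Microglial genes were lower in 12 of 16 and higher in none. P2ry12, a purine receptor of resting microglia, ranged from 12.2 to 35.8 CPM against 46.2 to 69.7 CPM (-1.39 ± 0.10, adjusted p = 2.47e-15), and Gpr34 was at -1.31 ± 0.13. With total-count scaling 7 were lower and 1 was higher. Genes of endothelium and mural cells were lower in 11 of 18, such as Rgs5 of pericytes (-0.64 ± 0.06) and Cdh5 (-0.64 ± 0.15), and higher in 3, Pltp (1.04 ± 0.10), Slc2a1 (0.56 ± 0.08) and Myl9 (0.37, adjusted p = 0.188 with the replicate block). The shares were 61.1% lower and 16.7% higher, against 31.2% and 33.5% of all genes tested. Total-count scaling left 7 members of the list lower.

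Markers of tissues next to the punch were measured for the SCN libraries too. Ependymal cells line the ventricle above the SCN, and of 21 ependymal genes 14 were in the SCN table alone, where their summed level ran from 59.8 to 468 CPM (median 242 CPM). The 4 tested members were higher. Nnat, given above among the imprinted genes, was the highest of them (4.48). Tppp3 ranged from 57.9 to 159 CPM against 8.92 to 17.4 CPM (2.94 ± 0.13, adjusted p = 7.36e-22), and Rfx4 differed by 1.33 ± 0.13. Vim (0.37 ± 0.15) lost its call with the replicate block (adjusted p = 0.0614). Meningeal genes were called in 1 of 7, Col1a1 (1.57 ± 0.37, adjusted p = 0.000221), and their median of 0.19 was -0.07 without SCN J1199 and SCN J1140. SCN J1199 had the highest meningeal sum, 1918 CPM, against an SCN median of 279 CPM and 198 to 1067 CPM in the PFC. Of 16 genes of striatal projection neurons, 9 were higher (56.25%) and 4 lower (25%), against 33.5% and 31.2% of all genes tested. The counts were 8 and 7 once SCN J1199 and SCN J1140 were left out. Six3, Isl1 and Penk are in that list, and neurons outside the striatum use them. Meis2, at -3.45 ± 0.45, was at -4.92 without those libraries, and Ano3 (-3.21 ± 0.43) at -4.62. The part of ependymal, meningeal and striatal tissue in other results was not tested.

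Genes of the cytosolic ribosome were higher in the SCN in 68 of 82 and lower in 2, with a median of 0.56. Of the 82, 9 lay wholly above the PFC, as did 8.9% of all genes tested. Rps6 ranged from 310 to 663 CPM in the SCN and from 174 to 303 CPM in the PFC (1.26 ± 0.08, adjusted p = 1.6e-16), and Rpl17 from 137 to 294 CPM against 38.9 to 95.4 CPM (1.68 ± 0.10). Rps4l (2.39 ± 0.12), a relative of Rps4x, was the highest. Rpl12 was among the lower ones (-0.48 ± 0.10), but was not called in the lower range of mouse numbers (-0.20, adjusted p = 0.0924). Ribosomal protein genes have many near-identical copies that can share reads, and ribosomal RNA rows moved in the same direction, as given above. Nuclear genes of oxidative phosphorylation were mostly not called, 49 of 78, with a median of -0.00446. Of the 78, 19 were higher (24.4%) and 10 lower (12.8%), against 33.5% and 31.2% of all genes tested. With the replicate block 12 were higher and 17 lower, and with total-count scaling 34 and 6, so that the list had no direction that held under these settings. Cox6c2 was at -1.35 ± 0.15 and Atp5g2 at 0.93 ± 0.09.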

How the data were processed

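The deposited gene counts of the SCN table and of the table of the PFC and nucleus accumbens were joined on Ensembl identifiers. The authors mapped reads with HISAT2 to GRCm38, made counts per gene with HTSeq (union mode), and deposited the counts as filtered tables without normalization. The filter behind these tables was not checked against the one the study describes. Whether counting used strand is not given in the sources used here. Groups came from the labels' tissue. Of 12047 and 11569 genes, 11133 were shared. Left out were 21 mitochondrial-chromosome genes and the ribosomal RNA rows Gm42418, Gm26917 and Gm23935, leaving 11109 genes. They were tested with edgeR 4.0.16 (quasi-likelihood, TMM, filterByExpr, which removed none) in R 4.3.3; log2 fold changes are SCN over PFC, and SEs were derived from the F statistics. CPM uses TMM-scaled totals of these genes. Ranges are lowest and highest library. Symbols, positions and overlaps came from GENCODE M21 on GRCm38; 22 genes had no entry.

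By the labels, 12 mice gave both libraries, and mouse numbers pair them. The pairing of J1165 is in doubt, as given above. J1165 stayed in the counts over 12 mice and in the fit with the block, and neither was repeated without it. The deviations of a mouse's 2 libraries from their region means correlated at -0.281 to 0.386, with a median of 0.0977, and over 0.1 in 6 of 12 mice. The main comparison had no block, and a fit with the mouse as a block was an alternative. No libraries of a region agreed within sampling noise: the lowest chi-square per gene was 11.7 in the SCN and 9.41 in the PFC.

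Genes named in the text were the 4 markers, every core clock gene, up to 4 called members of each list with the largest fold change and up to 2 called against its median, all members of tested lists of up to 12 genes, and the 15 largest in each direction among genes at least 4-fold different with ranges apart, which fixes the direction in every paired mouse. A few genes that the rule names are not reported here. The 11 further list members named were picked with their values in view. The comparison, gene lists and settings were chosen with earlier results of these data known.

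Alternatives were DESeq2 1.42.0 and its size factors, total-count and upper-quartile scaling, no filter or a filter at 1 CPM, the left-out rows kept, counts thinned to 6566651, the block, each range of mouse numbers and that range as a covariate, the nucleus accumbens libraries added, and fits without SCN J1199 and SCN J1140, without SCN J1165, and, chosen after seeing the data, without SCN J1157 and SCN J1159, the deepest SCN libraries. The calculation was tested on simulated data. Python 3.11.15, numpy 2.4.6 and pandas 2.3.3 were used outside R. Genes under about 1 CPM rest on few counts.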

Additional observations from a re-analysis of the deposited data

Results flagged for a closer look

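The 3 ribosomal RNA rows, which enter no comparison, held a median of 16.2% of all counts in the SCN libraries, against 3.79% in the PFC libraries, and every SCN library (8.96% to 19.3%) was above every PFC library (2.32% to 5.02%). This signal lies outside the genes compared and was flagged for that reason.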

How the results depend on the processing

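Under the 17 alternatives, the number of genes called ranged from 6875 to 7530, and no gene called both here and under an alternative changed direction. The replicate block in the 12 mice with both regions called 7131 genes, 3602 higher and 3529 lower, against 7089 in the same mice without it, and 6744 were among the 7191. It changed no call of a named gene beyond those given above. DESeq2 called 7222 genes. The share of calls that were higher in the SCN was 51.8%, and 66.8% and 62.5% with total-count and upper-quartile scaling. Of 2882 values of 170 named genes, 2801 kept their direction and their side of the threshold, 66 were weaker, 8 were stronger and 7 changed sign, all 7 in 5 genes that were not called. Within the lower range of mouse numbers, Nfil3 was at -0.347, Per3 at -0.201, Pdgfra at -0.112, Cspg4 at -0.198 and Fos at 0.083. Fos was at 0.19 with the replicate block. Per3 was at -0.0425 without SCN J1157 and SCN J1159. Fold changes that moved by over 1.5 times included Nts (5.06), Lamp5 (-4.51) and Mlip (-6.03) with the replicate block, and Slitrk6 (5.69), Inka2 (-4.58) and Lhx2 (-3.7) within the lower range. Not called were Rasl11b (0.37) without SCN J1157 and SCN J1159, Myl9 (0.28) and Pcsk1 (-0.26) without SCN J1199 and SCN J1140, Reln (-0.31) without SCN J1165 and Tac1 (0.75) within the lower range. The causes were not tested. Without SCN J1199 and SCN J1140, all 224 large differences lower in the SCN remained and 259 were found. Genes near 1 CPM are limited by depth: requiring 1 CPM in each region left 136 of the 146 large differences higher in the SCN. Dlk1, Six3, Isl1 and Nts, under 1 CPM in most PFC libraries, were not among the 136. Why genes this low in the PFC were listed in its table was not tested.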

Other observations

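The genes with large differences differed in size and place. The 146 genes at least 4-fold higher in the SCN with ranges apart had a median genomic span of 26222 bases, close to the 27726 bases of all 11087 annotated genes tested, while 222 annotated genes at least 4-fold lower had a median span of 77362 bases. A span over 100 kb was found in 24.0% of the former, 44.1% of the latter and 17.4% of all. Of the genes lower in the SCN, 73 were in the decile of longest span, from 157645 bases, where the median log2 fold change of all 1109 genes was -0.28, and it was 0.18 in the shortest decile. Across deciles of exon length, the median ran from 0.18 to -0.21. The relation was not tested, and the regions also differed in depth and ribosomal RNA. Chromosome X held 13 of the 146 genes (8.90%), Gpr101 among them, and 3.60% of the genes lower in the SCN, against 3.71% of all.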
